A study of Rattus norvegicus with 9 samples.

Results

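Potassium channel genes were described in cultured heart muscle cells carrying 1 of 3 adenoviruses. The members were all genes of the deposited count table whose symbol starts with Kcn followed by a lower-case letter and whose counts sum to at least 20 over the 9 libraries. Of the 28935 genes in the table, 92 had such a symbol and 73 reached the count minimum. Kcnj1, with 20 counts, lay just inside the minimum, and Kcng4, with 19 counts, just outside it. The cells were neonatal rat ventricular myocytes from Sprague-Dawley rats 1 or 2 days old, held for 48 h in medium with 3% fetal bovine serum. For the next 48 h they stood in serum-free medium with an adenovirus for GFP (the control group), for Nfya or for Nfe2l1, and each group comprises 3 mRNA libraries. All 3 groups share the isolation, an adenovirus and the withdrawal of serum, and no uninfected cells were analysed here. Below, virus groups, virus libraries and both viruses mean those of Nfya and Nfe2l1 only, set against the GFP virus. The promoter that drives each transgene is not given in the sources used here. Separate cultures or preparations are not stated in the labels, so p-values here reflect only how much these libraries varied, which may be technical.

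NFYA lends NF-Y, which recognises CCAAT boxes in promoters, its contact with DNA, and NFE2L1 is a CNC-type transcription factor known for proteasome and antioxidant genes. Potassium channels carry the outward currents that repolarise the cardiac action potential and the inward rectifier current that sets the resting potential. A channel is built from pore-forming alpha subunits, encoded by the voltage-gated, KCNQ, EAG, inward rectifier, tandem-pore and calcium-activated families. Smaller subunits (KCNE, cytosolic beta subunits and KChIP proteins) bind to them and alter their gating or surface expression.

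Library totals ranged from 5712123 to 7310774 counts, of which the members took 0.0989% to 0.137%. The 3 Nfya-labelled libraries differed from each other by no more than counting noise (chi-square per degree of freedom over genes 0.969, 1.004 and 0.990), against 1.07 to 1.67 among the GFP and 1.12 to 1.53 among the Nfe2l1-labelled libraries. They were analysed as 3 libraries, and counts with them summed into 1 sample are given beside the main counts. Nfya transcript stood at 80.4 ± 2.19 CPM (counts scaled to library size; SD, n = 3) in GFP, 89.0 ± 0.683 in the Nfya-labelled and 92.3 ± 2.20 in the Nfe2l1-labelled libraries. Nfe2l1 transcript stood at 241 ± 6.09, 223 ± 4.79 and 239 ± 6.15 CPM in the same order. Nfya was slightly higher in both virus groups (log2 fold change 0.15 and 0.20, adjusted p = 0.00926 and 2.06e-04) and Nfe2l1 was higher in neither (-0.11 and -0.01, adjusted p = 0.00784 and 0.856). The counts thus do not check the labels, and every direction below rests on the labels alone. The counted gene models are those of the rat table, and whether they take up reads of the transgenes was not tested.

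Of the 73 members, 54 had enough counts in at least 3 libraries to be tested and 19 did not (at most 65 counts in all). With both viruses more potassium channel genes were lower than higher. Against GFP, 11 members were higher and 20 lower in the Nfya-labelled libraries, while 23 did not pass the test (edgeR's quasi-likelihood test, with adjusted p (Benjamini-Hochberg, over 14151 genes) below 0.05). Among all tested genes, 24.3% were called higher and 27.9% lower in that comparison, against 20.4% and 37.0% of the members. In the Nfe2l1-labelled libraries 9 members were higher, 26 lower and 19 not called. The background there was 28.9% higher and 29.7% lower, against 16.7% and 48.1% of the members. Of 16 genes listed for the classical potassium currents of the myocyte, 13 were tested, with 1 higher and 9 lower for Nfya and none higher and 10 lower for Nfe2l1 (69.2% and 76.9% lower). The list was chosen with earlier results known and is no independent evidence of its direction. The median log2 fold change of the tested members was -0.19 for Nfya and -0.34 for Nfe2l1, beside -0.02 and -0.01 over all genes tested. With the Nfya-labelled libraries summed into 1 sample, the counts were 10 higher and 23 lower for Nfya and 9 higher and 28 lower for Nfe2l1.

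The share of members called lies near the high background, and the excess is in the lower direction. Libraries of the 2 groups did not overlap for 34 of the 54 members in Nfya against GFP (63.0%, beside 61.6% of all genes) and for 36 in Nfe2l1 against GFP (66.7%, beside 64.0%). Among the 25 members with a mean of at least 5 CPM over the 9 libraries, 4 were higher and 14 lower for Nfya, where all genes of that level gave 24.7% higher and 30.0% lower. For Nfe2l1, 4 of these 25 were higher and 17 lower, with 29.5% and 31.3% as background. Of the 54 tested members, 8 passed the filter on low counts through the libraries of 1 group alone. They were Kcna1, Kcne5 and Kcnk12 through Nfe2l1, Kcnj8 through Nfya, and Kcng1, Kcnc2, Kcnq3 and Kcnj4 through GFP. Their difference from the other groups was thus in part fixed by the filter. Kcnt1, Kcnc1, Kcnmb2, Kcnf1 and Kcnt2 passed through libraries of 2 groups, and their difference from the remaining group has the same limit.

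Summed over all 73 members, expression was 1351 ± 30.3 CPM in GFP (SD, n = 3; 1317 to 1375), 1061 ± 17.8 in the Nfya-labelled (1041 to 1074) and 1019 ± 30.4 in the Nfe2l1-labelled libraries (998 to 1054). Neither virus group overlaps GFP in this sum. By family, the inward rectifiers gave 426 ± 0.954 CPM in GFP, 333 ± 9.96 with Nfya and 319 ± 8.26 with Nfe2l1. The voltage-gated alpha subunits gave 230 ± 9.01, 147 ± 4.19 and 138 ± 3.33 CPM. The calcium- or sodium-activated channels gave 82.1 ± 3.06, 44.8 ± 2.45 and 48.5 ± 4.42 CPM. The sum of the cytosolic beta subunits of the voltage-gated channels lay the other way round, with 6.80 ± 1.29, 10.1 ± 0.910 and 22.5 ± 1.72 CPM. Most of its rise with Nfe2l1 was Kcnab2, from 1.46 CPM in GFP to 16.0. Kcnab1 went from 3.32 to 5.47 CPM and Kcnab3 from 2.02 to 1.07.

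**Figure D1:**
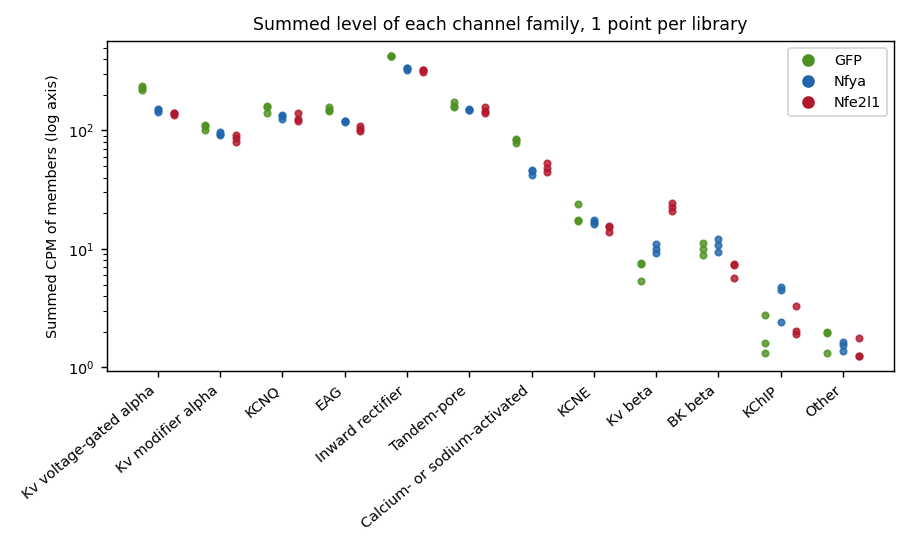
Summed expression of each channel family in every library, in CPM on a log axis, with points for libraries and colours for the GFP, Nfya-labelled and Nfe2l1-labelled groups. The voltage-gated alpha, inward rectifier and calcium- or sodium-activated sums lie lower in both virus groups than in GFP, and the Kv beta sum lies higher.

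Levels of different genes can be set side by side only per length, for which the authors' deposited RPKM values (reads per kilobase of gene, scaled to library size) were used. They cover 62 of the 73 members. In GFP, Kcng2, which encodes an electrically silent subunit that modifies other voltage-gated channels, was highest with 41.1, 45.9 and 47.9 RPKM. Kcnh2, the pore of the rapid delayed rectifier current, followed with 36.7, 38.4 and 35.4 RPKM. Next came Kcnj5 at 34.4 ± 0.207 RPKM (SD, n = 3), Kcnj11 at 31.1 ± 0.596, Kcnj3 at 30.2 ± 0.717 and Kcnj2 at 28.0 ± 1.02 RPKM. Of these neighbours only Kcnj11 and Kcnj3 overlap between libraries. Kcnk3 (24.7 ± 1.26 RPKM), Kcna4 (21.5 ± 0.829), Kcnn1 (21.1 ± 0.520), Kcnj12 (20.7 ± 0.133) and Kcnq1 (18.1 ± 0.992) formed the next steps. There Kcna4 cannot be ordered against Kcnn1, nor Kcnn1 against Kcnj12, beyond their spread. Kcnd3 (13.1 ± 0.672 RPKM), Kcne1 (12.95 ± 3.52), Kcnq5 (11.7 ± 1.29) and Kcnk2 (10.5 ± 0.750) followed, and neighbours within this set overlap. No GFP library of Kcnd3 reaches those of Kcnq1.

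**Figure D2:**
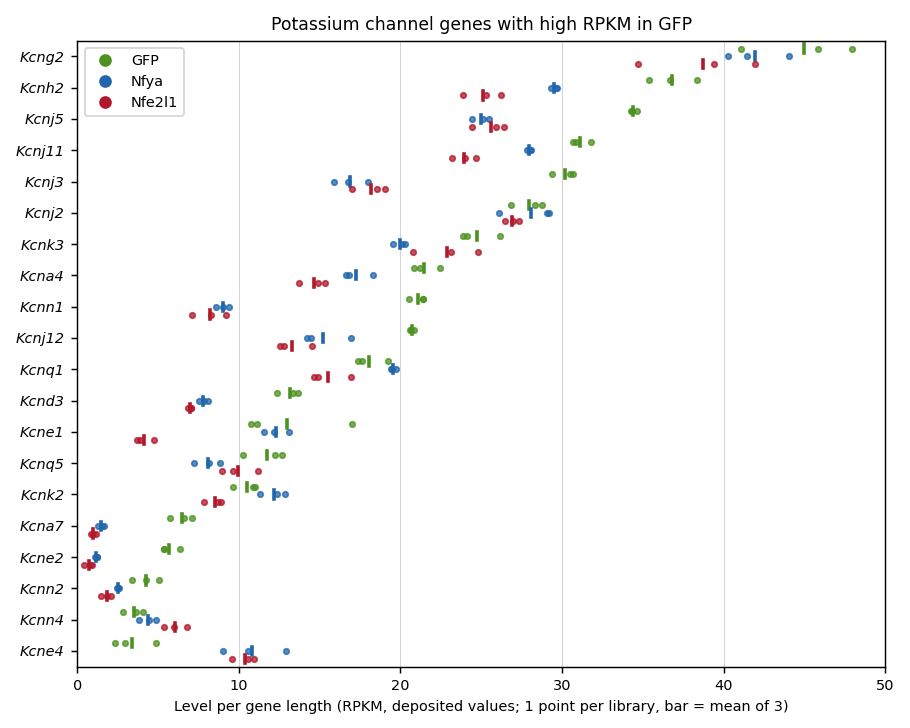
Deposited RPKM of 20 members with a high mean in GFP, as points for each library and bars for the group mean, by group. Kcng2, Kcnh2 and the inward rectifiers Kcnj5, Kcnj11, Kcnj3 and Kcnj2 lead in GFP, and Kcnj2 stays level across the groups.

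The voltage-gated alpha subunits, which open on depolarisation and carry the transient outward and delayed rectifier currents, were mostly lower with both viruses. Of 13 members 11 were tested. With Nfya 2 were higher and 6 lower, and with Nfe2l1 2 were higher and 7 lower. For the 2 viruses 72.7% and 81.8% of those tested were called in either direction, beside 52.2% and 58.6% of all genes. The median log2 fold changes were -0.57 and -0.90.

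Kcnd3, a pore subunit of the fast transient outward current, read 93.5, 91.0 and 85.5 CPM in GFP, 52.9, 50.9 and 54.6 in Nfya-labelled and 48.5, 47.5 and 48.0 in Nfe2l1-labelled libraries. Every GFP library lies above every other library. The log2 fold change was -0.77 ± 0.04 (SE) with Nfya (1.71-fold lower, adjusted p = 9.14e-10) and -0.91 ± 0.05 with Nfe2l1 (1.88-fold lower, adjusted p = 1.26e-10). Kcna4, which forms the slowly recovering transient outward current, read 70.2, 66.3 and 65.8 CPM in GFP, 56.9, 52.3 and 51.6 with Nfya, and 48.4, 43.6 and 46.4 with Nfe2l1. The 3 groups do not overlap, with GFP on top and Nfe2l1 at the bottom. Kcna4 fell by 0.33 ± 0.05 on the log2 scale with Nfya (adjusted p = 4.44e-05) and fell by 0.55 ± 0.05 with Nfe2l1 (adjusted p = 2.20e-07). Per length, Kcnd3 stood at 0.595 to 0.629 of Kcna4 in the GFP libraries, 0.427 to 0.485 in the Nfya-labelled and 0.460 to 0.4999 in the Nfe2l1-labelled libraries, as the ratio of RPKM values. The ratio was thus lower in all 6 virus libraries than in any GFP library.

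Kcna7, a voltage-gated subunit of the Shaker-related group, had among the largest falls of the well-counted members. It read 25.6, 23.6 and 21.1 CPM in GFP, 5.36, 5.93 and 4.62 with Nfya, and 3.58, 2.98 and 4.23 with Nfe2l1. No library of one group reaches into another. Kcna7 was 4.42-fold lower with Nfya (log2 fold change -2.14 ± 0.14, adjusted p = 2.76e-09) and 6.46-fold lower with Nfe2l1 (-2.69 ± 0.15, adjusted p = 3.35e-10).

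The Shaw-related subunits Kcnc2 and Kcnc1, known for fast-spiking neurons, were rarer. Kcnc2 had 24, 16 and 19 counts in GFP, 1, 1 and 0 with Nfya, and 4, 0 and 3 with Nfe2l1. The 59 counts of GFP against 2 with Nfya give a size-scaled count ratio of 30.8 with a 95% exact (Clopper-Pearson) interval of 8.17 to 261 that covers counting error only. With Nfe2l1 the log2 fold change was -3.10 ± 0.48 (adjusted p = 4.42e-05). Kcnc1 was called lower with Nfe2l1 (-0.997 ± 0.37, adjusted p = 0.0286). That call was lost without GFP replicate 2 or 3 or Nfe2l1 replicate 2 or 3 (log2 fold change -0.98, -0.86, -0.89 and -0.88, adjusted p 0.0720 to 0.102).

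Against the direction of most of the family, Kcna6 was higher with both viruses and Kcna1 with Nfe2l1 alone. Both genes are Shaker-related and of low abundance. Kcna6 read 1.69, 2.07 and 1.42 CPM in GFP, 8.12, 7.14 and 7.16 with Nfya, and 8.55, 9.72 and 11.6 with Nfe2l1. All virus libraries lie above all GFP libraries, and Kcna6 rose by 2.09 ± 0.22 on the log2 scale with Nfya (4.26-fold, adjusted p = 1.01e-06) and by 2.51 ± 0.21 with Nfe2l1 (5.70-fold, adjusted p = 5.11e-08). Kcna1 read 0.766, 0.887 and 0.354 CPM in GFP, 0.307, 0.304 and 0.746 with Nfya, and 4.66, 4.08 and 3.68 with Nfe2l1. The high libraries are the 3 Nfe2l1-labelled ones, 5.89-fold above GFP (2.56 ± 0.33, adjusted p = 6.61e-06), while Nfya against GFP gave -0.57 ± 0.53 (adjusted p = 0.438). Kcna1 passed the filter through the Nfe2l1-labelled libraries alone. Kcna3 was called higher with Nfya (1.25 ± 0.43, adjusted p = 0.0221), with libraries that overlap GFP. Leaving out GFP replicate 1 or 2 or Nfya replicate 2 or 3 ended that call (log2 fold change 1.16, 1.04, 1.23 and 0.88, adjusted p 0.0551 to 0.142). Kcnd1 did not pass either test (0.04 ± 0.28 and 0.11 ± 0.27). Kcna5, the ultra-rapid delayed rectifier subunit, had 14 counts in all and is no member, and Kcnd2 was not analysed here.

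**Figure D3:**
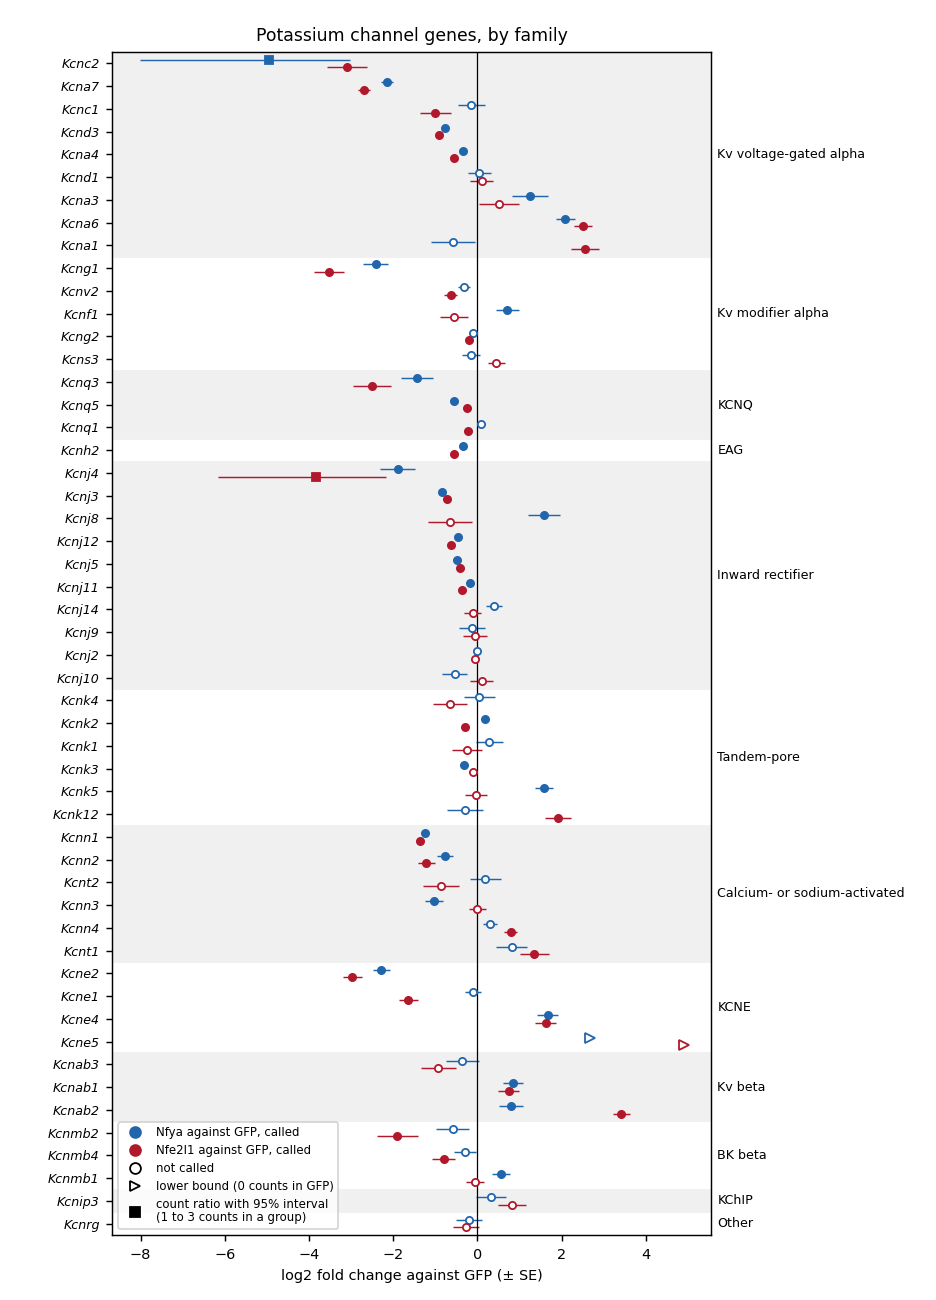
Log2 fold change against GFP of tested members, grouped by family, with bars for the standard error. Filled points passed the test and open points did not, the triangle is a lower bound (Kcne5) and the squares are count ratios with 95% intervals (Kcnc2 with Nfya, Kcnj4 with Nfe2l1). Most filled points lie left of 0.

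The electrically silent subunits form no channel alone and modify their partners. Of 8 members 5 were tested, with 1 higher and 1 lower for Nfya and none higher and 3 lower for Nfe2l1 (40% and 60% called, beside 52.2% and 58.6% of all genes). Kcng1 read 6.44, 7.09 and 6.02 CPM in GFP, 0.920, 1.37 and 1.34 with Nfya, and 1.09, 0.470 and 0.136 with Nfe2l1. Both virus groups lie far below GFP, 5.33-fold with Nfya (log2 fold change -2.41 ± 0.30, adjusted p = 5.52e-06) and 11.6-fold with Nfe2l1 (-3.53 ± 0.35, adjusted p = 3.52e-07). Kcng1 passed the filter on low counts through the GFP libraries alone. Kcng2, the highest member per length, read 75.5, 84.4 and 89.0 CPM in GFP, 73.4, 80.4 and 75.6 with Nfya, and 64.4, 78.2 and 72.1 with Nfe2l1. Its groups overlap. The test gave -0.11 ± 0.07 (adjusted p = 0.169) with Nfya and -0.21 ± 0.07 (adjusted p = 0.0137) with Nfe2l1. The latter call was lost without GFP replicate 2 or 3 or Nfe2l1 replicate 1 (log2 fold change -0.18, -0.16 and -0.12, adjusted p 0.0605 to 0.134).

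Kcnf1 was higher with Nfya, at 3.07, 1.98 and 3.28 CPM against 1.69, 1.63 and 1.77 in GFP, and stood at 1.09, 1.25 and 1.09 with Nfe2l1. Its Nfya difference was small beside its error (0.71 ± 0.27, adjusted p = 0.0447) and missed the threshold in 6 of the 9 fits that left out a library (adjusted p 0.0520 without Nfe2l1 replicate 2, and 0.0766 to 0.181 without GFP replicate 1, 2 or 3 or Nfya replicate 1 or 3). With the Nfya-labelled libraries summed into 1 sample its adjusted p was 0.0775. Kcnv2 was lower with Nfe2l1 (-0.64 ± 0.15, adjusted p = 0.00183), and with Nfya gave -0.31 ± 0.15 (adjusted p = 0.0948).

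The slow and rapid delayed rectifier currents are built by Kcnq1 with its partner Kcne1, and by Kcnh2. Kcnh2 fell with both viruses, whereas Kcnq1 fell with Nfe2l1 alone. Kcnh2 read 148, 155 and 144 CPM in GFP, 119, 118 and 117 with Nfya, and 96.9, 107 and 102 with Nfe2l1. The groups do not overlap, and the log2 fold changes were -0.34 ± 0.04 (adjusted p = 1.44e-06) and -0.55 ± 0.04 (adjusted p = 5.29e-09). Kcnq1 read 70.3, 76.7 and 70.1 CPM in GFP, 78.0, 76.9 and 77.1 with Nfya, and 59.9, 59.4 and 67.2 with Nfe2l1. All Nfe2l1-labelled libraries lie below GFP (-0.22 ± 0.05, adjusted p = 0.00223). The Nfya libraries lie just above GFP (0.09 ± 0.05, adjusted p = 0.140), a difference that passed the test without GFP replicate 2 (0.17, adjusted p = 0.0204), Nfe2l1 replicate 1 (0.13, adjusted p = 0.0469) or Nfe2l1 replicate 3 (0.13, adjusted p = 0.0343).

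Among the other KCNQ genes, which carry M-type currents in neurons, Kcnq5 was the more abundant. It read 82.6, 79.9 and 67.4 CPM in GFP, 52.7, 46.96 and 57.3 with Nfya, and 58.9, 63.8 and 72.4 with Nfe2l1. The Nfya libraries lie below all GFP libraries (-0.56 ± 0.09, adjusted p = 4.98e-05) and the Nfe2l1 libraries overlap them (-0.24 ± 0.08, adjusted p = 0.0200). The Nfe2l1 call was lost without GFP replicate 1 or 2 or Nfe2l1 replicate 1 or 2 (log2 fold change -0.17, -0.20, -0.15 and -0.22, adjusted p 0.0575 to 0.136). Kcnq3 had 17, 23 and 10 counts in GFP, 8, 7 and 4 with Nfya, and 3, 5 and 1 with Nfe2l1, and was lower with both viruses (-1.44 ± 0.39, adjusted p = 0.00538, and -2.50 ± 0.45, adjusted p = 1.85e-04).

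The KCNE genes encode small single-span subunits that set the kinetics of the KCNQ and EAG channels, and their 4 members diverged. Kcne2, a partner of Kcnh2 and other pores, read 10.9, 9.16 and 9.55 CPM in GFP, 1.84, 2.13 and 2.09 with Nfya, and 1.56, 1.41 and 0.818 with Nfe2l1. GFP lies above all virus libraries, by 4.85-fold against Nfya (log2 fold change -2.28 ± 0.21, adjusted p = 1.54e-07) and 7.83-fold against Nfe2l1 (-2.97 ± 0.23, adjusted p = 1.56e-08). Kcne1 read 9.96, 6.501 and 6.37 CPM in GFP, 7.05, 7.60 and 6.71 with Nfya, and 2.80, 2.20 and 2.32 with Nfe2l1. The low libraries are the 3 Nfe2l1-labelled ones (3.12-fold lower, -1.64 ± 0.23, adjusted p = 1.38e-05). With Nfya the difference was -0.10 ± 0.19 with a 95% interval of -0.50 to 0.30, and it was 0.18 without GFP replicate 1, the library that stands apart in its group.

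The levels of pore and partner per length therefore shifted against each other. The RPKM of Kcnh2 was 5.80 to 7.15 times that of Kcne2 in the GFP libraries, 23.8 to 27.5 times in the Nfya-labelled and 26.5 to 57.7 times in the Nfe2l1-labelled libraries. The RPKM of Kcnq1 was 1.04 to 1.73 times that of Kcne1 in GFP, 1.48 to 1.68 times with Nfya and 3.13 to 4.38 times with Nfe2l1. In the Kcnq1 ratio the GFP and Nfya libraries overlap and the Nfe2l1 libraries lie above both.

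Kcne4 and Kcne5, inhibitory partners of KCNQ channels, were higher with both viruses. Kcne4 read 3.06, 1.48 and 1.77 CPM in GFP, 6.59, 5.62 and 8.05 with Nfya, and 6.69, 6.11 and 6.82 with Nfe2l1. All virus libraries lie above GFP, and the log2 fold changes were 1.67 ± 0.25 (3.18-fold, adjusted p = 3.80e-05) and 1.62 ± 0.25 (3.08-fold, adjusted p = 4.08e-05). Kcne5 had no count in any GFP library, 9, 6 and 5 counts with Nfya and 28, 27 and 41 counts with Nfe2l1. Its deposited RPKM in GFP replicate 3 was 0.0814 although no count stands there, and the source of that difference was not tested. Against a floor of 3 counts over the GFP group Kcne5 was at least 6.38-fold higher with Nfya (adjusted p = 1.87e-04) and at least 30.1-fold higher with Nfe2l1 (adjusted p = 1.44e-07). The bounds cover counting error only, and the adjusted p-values come from the quasi-likelihood test. Kcne5 passed the filter on low counts through the Nfe2l1-labelled libraries alone.

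The sequences of 250 bases before the annotated start of both genes are shown because these are the KCNE members that rose in both virus groups. They come from RefSeq on the rat build GRCr8, written 5′ to 3′ on the gene's strand. Capitals mark a match to TGACNNNGC or its reverse strand GCNNNGTCA (the core letters bound by CNC factors with small Maf proteins), or to CCAAT or its reverse strand ATTGG (the NF-Y box).
Kcne4 (chr9:87695798-87696047, plus strand): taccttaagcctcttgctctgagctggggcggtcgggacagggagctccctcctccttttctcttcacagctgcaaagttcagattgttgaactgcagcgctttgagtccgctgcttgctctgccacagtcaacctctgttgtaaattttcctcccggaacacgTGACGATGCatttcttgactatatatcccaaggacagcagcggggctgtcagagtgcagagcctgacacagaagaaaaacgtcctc
Kcne5 (chrX:110727850-110728099, minus strand): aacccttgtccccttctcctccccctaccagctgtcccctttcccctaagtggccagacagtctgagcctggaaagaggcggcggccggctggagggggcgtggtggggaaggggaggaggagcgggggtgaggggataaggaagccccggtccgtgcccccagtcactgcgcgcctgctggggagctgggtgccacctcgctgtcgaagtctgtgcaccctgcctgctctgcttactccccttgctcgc
The Kcne4 window holds TGACGATGC, and the Kcne5 window holds neither motif, so it is printed without capitals. A CNC core also lies 231 bases before the start of Kcne1, which was lower with Nfe2l1. Another lies 61 bases before the start of Kcnj4, which was lower with both viruses. RefSeq entries (250 bases before to 50 after a start) were found for 49 members, with 54 promoters. CCAAT or ATTGG occurred in 15 of these 54 (27.8%), beside 37.5% of all 33469 promoters. The CNC core occurred in 7 of the 54, beside 12.1% of all promoters. Such a match describes letters only and no binding was measured.

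**Figure D4:**
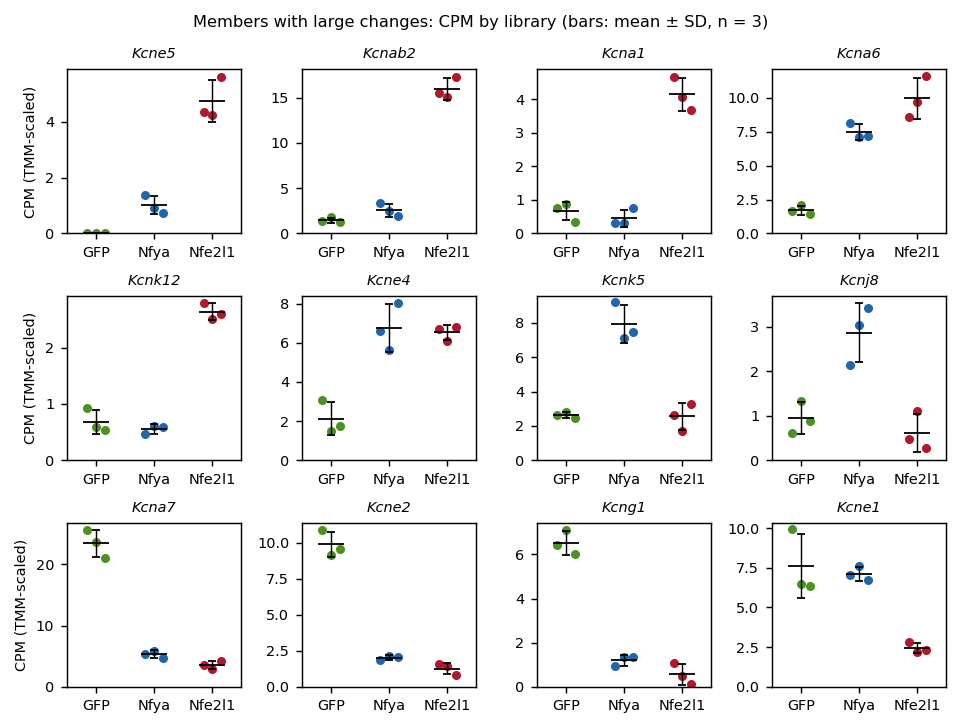
Expression in CPM of 12 members in every library, with points for libraries and bars for the mean and SD of each group (n = 3). Kcne5, Kcnab2, Kcna1 and Kcnk12 are highest with Nfe2l1, Kcnk5 and Kcnj8 with Nfya, and Kcna7, Kcne2 and Kcng1 are highest with GFP.

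The inward rectifiers hold the resting potential, carry the acetylcholine-activated current and form ATP-sensitive channels. Of 14 members 10 were tested, and 1 was higher and 5 lower with Nfya, none higher and 5 lower with Nfe2l1 (60% and 50% called, beside 52.2% and 58.6%). Kcnj2, the main pore of the classical inward rectifier current, read 47.7, 48.3 and 45.5 CPM in GFP, 48.4, 43.5 and 48.6 with Nfya, and 44.8, 45.9 and 45.7 with Nfe2l1. The groups overlap. The differences were -0.01 ± 0.05 (95% interval -0.13 to 0.10) and -0.05 ± 0.05 (95% interval -0.17 to 0.06). Kcnj12, which joins Kcnj2 in that current, read 47.7, 48.0 and 47.9 CPM in GFP, 33.1, 32.5 and 38.8 with Nfya, and 29.1, 29.9 and 33.3 with Nfe2l1. Its GFP libraries are nearly equal and lie above all others. Kcnj12 was lower by 1.37-fold with Nfya (-0.46 ± 0.07, adjusted p = 3.15e-05) and by 1.55-fold with Nfe2l1 (-0.63 ± 0.07, adjusted p = 1.02e-06). Per length, Kcnj12 stood at 0.725 to 0.767 of Kcnj2 in the GFP, 0.498 to 0.581 in the Nfya-labelled and 0.473 to 0.531 in the Nfe2l1-labelled libraries.

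The window before the start of Kcnj2 is shown as that of a well-counted member that passed no test and yet holds both motifs, with the same build and marking.
Kcnj2 (chr10:96559975-96560224, plus strand): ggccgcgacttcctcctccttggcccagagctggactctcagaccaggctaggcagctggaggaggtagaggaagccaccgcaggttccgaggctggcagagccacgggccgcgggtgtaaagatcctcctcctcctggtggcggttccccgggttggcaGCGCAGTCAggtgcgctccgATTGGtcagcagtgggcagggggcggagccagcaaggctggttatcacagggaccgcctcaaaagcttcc
It holds ATTGG and GCGCAGTCA in its plus strand.

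Kcnj3 and Kcnj5 together form the acetylcholine-activated channel, and both were lower with both viruses. Kcnj3 read 56.1, 53.6 and 56.4 CPM in GFP, 32.7, 28.9 and 30.4 with Nfya, and 34.2, 31.5 and 34.6 with Nfe2l1. GFP lies well above both (-0.85 ± 0.06, adjusted p = 5.72e-09, and -0.72 ± 0.06, adjusted p = 2.04e-08). Kcnj5 read 165, 165 and 168 CPM in GFP, 122, 117 and 120 with Nfya, and 128, 119 and 124 with Nfe2l1. Its fall was smaller (-0.48 ± 0.03, adjusted p = 6.49e-09, and -0.42 ± 0.03, adjusted p = 1.61e-08). The RPKM of Kcnj5 was 1.12 to 1.17 times that of Kcnj3 in GFP, 1.42 to 1.53 times with Nfya and 1.36 to 1.44 times with Nfe2l1, with no overlap between GFP and either virus.

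Kcnj11 and Kcnj8 are the pores of the ATP-sensitive channels, and Kcnj8 is the form typical of vascular smooth muscle. Kcnj11 read 93.8, 96.5 and 93.9 CPM in GFP, 84.3, 83.9 and 84.6 with Nfya, and 75.4, 71.3 and 72.5 with Nfe2l1. The 3 groups do not overlap, and the differences were small (-0.17 ± 0.04, adjusted p = 0.00162, and -0.38 ± 0.04, adjusted p = 2.49e-07). Without GFP replicate 2 the Nfya difference was -0.13 (adjusted p = 0.0510). Kcnj8 read 0.613, 1.33 and 0.885 CPM in GFP, 2.15, 3.04 and 3.43 with Nfya, and 0.466, 1.10 and 0.273 with Nfe2l1. Here the high libraries are the Nfya-labelled ones (2.99-fold, log2 fold change 1.58 ± 0.38, adjusted p = 0.00231), and Nfe2l1 gave -0.65 ± 0.52 (adjusted p = 0.303). Kcnj8 passed the filter on low counts through the Nfya-labelled libraries alone. Smooth muscle and pericyte markers summed to 1298 to 1344 CPM in GFP, 1414 to 1425 with Nfya and 1076 to 1130 with Nfe2l1. Of the 8 tested, 5 were higher and 1 lower with Nfya (24.3% and 27.9% of all genes). With Nfe2l1, 2 were higher and 3 lower (28.9% and 29.7% of all genes), so these markers did not move together. Their part in the Kcnj8 difference was not tested. Kcnj4, another strong rectifier, had 12, 14 and 14 counts in GFP, 2, 5 and 4 with Nfya, and 2, 1 and 0 with Nfe2l1. Over the groups that is 40 counts in GFP, 11 with Nfya (-1.89 ± 0.41, adjusted p = 0.00116) and 3 with Nfe2l1, the last a count ratio of 14.2 (95% exact interval 4.52 to 71.6).

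The tandem-pore channels carry background potassium current and respond to acid, stretch or lipids. Of 9 members 6 were tested, with 2 higher and 1 lower for Nfya and 1 higher and 1 lower for Nfe2l1. That is 50% and 33.3% called, beside 52.2% and 58.6% of all genes, so this family lies at or below the background. Kcnk3, an acid-sensitive background channel, read 121, 112 and 112 CPM in GFP, 92.3, 89.8 and 93.1 with Nfya, and 96.9, 109 and 114 with Nfe2l1. The Nfya libraries lie below all GFP libraries (-0.33 ± 0.05, adjusted p = 8.08e-05), and the Nfe2l1 libraries overlap GFP (-0.11 ± 0.05, adjusted p = 0.0878). Without Nfe2l1 replicate 3, its highest library, the Nfe2l1 difference was -0.15 and passed the test (adjusted p = 0.0199). Kcnk2, a stretch-sensitive channel, read 39.5, 40.04 and 35.4 CPM in GFP, 40.8, 46.4 and 44.6 with Nfya, and 32.0, 29.0 and 32.3 with Nfe2l1. It lies above GFP with Nfya (0.19 ± 0.07, adjusted p = 0.0225) and below it with Nfe2l1 (-0.30 ± 0.07, adjusted p = 0.00161). The Nfya call was lost without GFP replicate 3 or Nfya replicate 2 or 3 (0.14, 0.15 and 0.18, adjusted p 0.0683 to 0.129).

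Kcnk5, an alkali-sensitive channel, read 2.61, 2.81 and 2.48 CPM in GFP, 9.20, 7.14 and 7.46 with Nfya, and 2.64, 1.72 and 3.27 with Nfe2l1. The Nfya libraries stand alone on top, 2.99-fold above GFP (log2 fold change 1.58 ± 0.22, adjusted p = 1.75e-05), and Nfe2l1 gave -0.03 ± 0.27 (adjusted p = 0.931). Kcnk12, a silent member of the family, read 0.919, 0.591 and 0.531 CPM in GFP, 0.460, 0.608 and 0.597 with Nfya, and 2.80, 2.51 and 2.59 with Nfe2l1. The Nfe2l1 libraries were 3.76-fold above GFP (1.91 ± 0.32, adjusted p = 7.59e-05), and Nfya gave -0.30 ± 0.44 (adjusted p = 0.693). Kcnk12 passed the filter on low counts through the Nfe2l1-labelled libraries alone. The window before the start of Kcnk5 is shown because this gene had the smallest adjusted p among members higher with Nfya than with Nfe2l1.
Kcnk5 (chr15:4171375-4171624, plus strand): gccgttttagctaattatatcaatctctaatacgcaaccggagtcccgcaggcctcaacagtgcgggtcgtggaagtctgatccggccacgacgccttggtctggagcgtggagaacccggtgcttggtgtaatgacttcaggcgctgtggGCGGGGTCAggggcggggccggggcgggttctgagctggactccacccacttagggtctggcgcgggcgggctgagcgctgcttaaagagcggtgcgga
It holds GCGGGGTCA, a CNC core on the reverse strand, and no CCAAT box.

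The calcium-activated channels of small and intermediate conductance link intracellular calcium to repolarisation, and the sodium-activated channels open with intracellular sodium. Of 7 members 6 were tested, with none higher and 3 lower for Nfya and 2 higher and 2 lower for Nfe2l1 (50% and 66.7% called, beside 52.2% and 58.6% of all genes). Kcnn1 was the most abundant, at 56.5, 56.4 and 54.8 CPM in GFP, 22.5, 23.7 and 24.6 with Nfya, and 22.1, 19.0 and 24.1 with Nfe2l1. GFP lies well above both virus groups, 2.37-fold (-1.24 ± 0.07, adjusted p = 4.06e-10) and 2.56-fold (-1.36 ± 0.07, adjusted p = 1.27e-10). Kcnn2 was lower with both as well (7.46 ± 1.43 CPM in GFP, 4.39 ± 0.119 and 3.21 ± 0.524; adjusted p = 0.00288 and 7.87e-05). Kcnn3 fell with Nfya alone, from 6.43 ± 0.537 CPM in GFP to 3.13 ± 0.843 (-1.04 ± 0.22, adjusted p = 7.83e-04), and stood at 6.40 ± 0.955 CPM with Nfe2l1. Kcnn4, the intermediate-conductance channel of blood and fibroblast-like cells, rose with Nfe2l1 from 7.69 ± 1.36 to 13.3 ± 1.53 CPM (0.79 ± 0.15, adjusted p = 3.34e-04). Kcnt1 had 5, 9 and 6 counts in GFP, 10, 14 and 13 with Nfya, and 11, 19 and 25 with Nfe2l1. It was higher with Nfe2l1 (1.35 ± 0.34, adjusted p = 0.00293), and Nfya gave 0.81 ± 0.37 (adjusted p = 0.0783). Kcnt1 passed the filter on low counts through the Nfya-labelled and Nfe2l1-labelled libraries alone, so its difference from GFP was in part fixed by the filter. Kcnma1, the pore of the large-conductance channel, did not pass the filter on low counts, which asks for 1.53 CPM in at least 3 libraries. It had 19, 15 and 7 counts in the GFP libraries, 4, 6 and 4 with Nfya, and 4, 4 and 2 with Nfe2l1. In the authors' deposited table Kcnma1 was lower in both comparisons (log2 fold change -1.55, FDR 0.00110, and -2.08, FDR 3.53e-05). Kcnt2, a sodium-activated channel, had 7, 11 and 8 counts in GFP, 13, 6 and 12 with Nfya, and 4, 3 and 8 with Nfe2l1, and was called against GFP with neither virus (adjusted p = 0.707 and 0.0958).

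Of the large-conductance channel, the beta subunits Kcnmb1, Kcnmb2 and Kcnmb4 were tested. Kcnmb1 was called higher with Nfya (0.56 ± 0.21, adjusted p = 0.0307), a call lost without GFP replicate 3, Nfya replicate 1 or Nfya replicate 2 (0.45, 0.46 and 0.59, adjusted p 0.0566 to 0.119), and with the Nfya-labelled libraries summed (adjusted p = 0.0669). Kcnmb2 was lower with Nfe2l1 (8, 11 and 17 counts in GFP, 11, 9 and 5 with Nfya, 5, 2 and 3 with Nfe2l1; -1.90 ± 0.49, adjusted p = 0.00312). Kcnmb4 was called lower with Nfe2l1 too (-0.80 ± 0.28, adjusted p = 0.0205), which was lost without GFP replicate 1 (-0.50, adjusted p = 0.178) or Nfe2l1 replicate 1 (-0.75, adjusted p = 0.0636).

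The cytosolic beta subunits bind Shaker-related channels, and 1 of them had the largest rise among well-counted members. Kcnab2 read 1.38, 1.77 and 1.24 CPM in GFP, 3.37, 2.43 and 1.94 with Nfya, and 15.6, 15.1 and 17.3 with Nfe2l1. The Nfe2l1 libraries stand far above the rest, 10.7-fold over GFP (3.42 ± 0.21, adjusted p = 9.41e-10). The Nfya difference was smaller (0.79 ± 0.29, adjusted p = 0.0323) and lost the call without GFP replicate 1 or 3 or Nfya replicate 1 or 2 (0.78, 0.70, 0.56 and 0.83, adjusted p 0.0512 to 0.225). Kcnab1 was higher with Nfya (0.84 ± 0.24, adjusted p = 0.00712) and with Nfe2l1 (0.74 ± 0.24, adjusted p = 0.0146), the latter lost without GFP replicate 2 (0.52, adjusted p = 0.0847) or Nfe2l1 replicate 3 (0.62, adjusted p = 0.0699). Kcnab3 gave -0.36 ± 0.38 and -0.93 ± 0.42 (adjusted p = 0.471 and 0.0671).

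KChIP proteins bind Kcnd pores and raise their current. Kcnip2, the main form of adult ventricle, was too sparse for the test and uneven, at 3, 1 and 2 counts in GFP, 13, 1 and 20 counts with Nfya and 0, 1 and 1 counts with Nfe2l1. In 1 Nfya-labelled library it is as low as in GFP, so those libraries do not move as a group. Kcnip3 gave 0.33 ± 0.36 and 0.82 ± 0.33 (adjusted p = 0.549 and 0.0615). The other untested members include Kcng3 (23, 6 and 2 counts over the GFP, Nfya-labelled and Nfe2l1-labelled groups), Kcns1 (18, 2 and 4 counts), Kcnk10 (19, 4 and 1 counts) and Kcnj15 (1, 11 and 14 counts). These 4 were picked after their counts were seen and have no test.

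The Nfya-labelled and Nfe2l1-labelled libraries were also compared directly. Of the 54 tested members 14 were higher and 10 lower with Nfya, and 30 did not pass, beside 25.2% of all genes called higher and 25.4% lower (25.9% and 18.5% of the members). In either direction 44.4% of the members were called, beside 50.6% of all genes, and libraries did not overlap for 28 members (51.9%, beside 60.0%). With the Nfya-labelled libraries summed the counts were 15 and 9. Kcna1 was 8.76-fold lower with Nfya than with Nfe2l1 (log2 fold change -3.13 ± 0.36, adjusted p = 2.28e-06) and Kcnab2 was 6.18-fold lower (-2.63 ± 0.18, adjusted p = 7.55e-09). Kcne5 was 4.64-fold lower (-2.21 ± 0.30, adjusted p = 2.50e-05), and Kcnk12 was 4.62-fold lower (-2.21 ± 0.33, adjusted p = 3.37e-05). For all 4 genes the highest libraries are the 3 Nfe2l1-labelled ones. Kcna1, Kcne5 and Kcnk12 passed the filter on low counts through those libraries alone, so their difference was in part fixed by the filter.

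In the other direction, Kcnj8 was 4.70-fold higher with Nfya (2.23 ± 0.41, adjusted p = 2.79e-04) and Kcnk5 was 3.06-fold higher (1.61 ± 0.22, adjusted p = 1.31e-05). The Kcnj8 difference was in part fixed by the filter, which it passed through the Nfya-labelled libraries alone. Kcne1 was 2.91-fold higher (1.54 ± 0.23, adjusted p = 3.75e-05) and Kcnf1 was 2.41-fold higher (1.27 ± 0.29, adjusted p = 0.00184). Among the abundant channels the difference between the viruses was small but passed the test for Kcnk2 (0.49 ± 0.07, adjusted p = 1.62e-05), Kcnq1 (0.31 ± 0.05, adjusted p = 1.08e-04), Kcnh2 (0.21 ± 0.04, adjusted p = 3.22e-04), Kcnj11 (0.21 ± 0.04, adjusted p = 2.84e-04) and Kcna4 (0.22 ± 0.06, adjusted p = 0.00385). Kcnk3 (-0.22 ± 0.05, adjusted p = 0.00257), Kcnq5 (-0.32 ± 0.09, adjusted p = 0.00655) and Kcnn3 (-1.04 ± 0.21, adjusted p = 7.57e-04) were lower with Nfya. The Kcnq5 difference was -0.21 without Nfe2l1 replicate 3 (adjusted p = 0.0638). The difference was not called for Kcnj2 (0.04 ± 0.05), Kcnj5 (-0.05 ± 0.03), Kcnj3 (-0.13 ± 0.06) or Kcne4 (0.05 ± 0.20), whose 95% intervals were -0.07 to 0.16, -0.13 to 0.02, -0.27 to 0.01 and -0.38 to 0.47.

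Several weaker differences between the viruses lay near the threshold and crossed it when 1 library was left out, for most of them any of several libraries. Kcnmb2 (1.31 ± 0.53, adjusted p = 0.0481) lost the call without Nfya replicate 1 or 2, GFP replicate 2 or Nfe2l1 replicate 2 or 3 (log2 fold change 1.06 to 1.33, adjusted p 0.0561 to 0.183). Kcnt2 (1.06 ± 0.41, adjusted p = 0.0441) lost it without Nfya replicate 1 or 3, GFP replicate 2 or 3 or Nfe2l1 replicate 1 or 2 (0.83 to 1.07, adjusted p 0.0523 to 0.173). Kcna6 (-0.42 ± 0.16, adjusted p = 0.0363) lost it without Nfya replicate 2 or 3, GFP replicate 1 or Nfe2l1 replicate 2 or 3 (-0.44 to -0.27, adjusted p 0.0508 to 0.223). Kcna7 (0.55 ± 0.20, adjusted p = 0.0293) lost it without Nfe2l1 replicate 1 or 2 or Nfya replicate 1 or 2 (0.43 to 0.56, adjusted p 0.0573 to 0.128). Kcng1 (1.12 ± 0.49, adjusted p = 0.0715) gained it without Nfe2l1 replicate 1 (2.00, adjusted p = 0.00902). Kcnj4 (1.77 ± 0.72, adjusted p = 0.0518) gained it without Nfe2l1 replicate 1 (2.66, adjusted p = 0.0320) or Nfya replicate 1 (2.05, adjusted p = 0.0410). Kcnd3 (0.14 ± 0.05, adjusted p = 0.0623) gained it without GFP replicate 1 or 2 (0.16 in both, adjusted p = 0.0316 and 0.0317). Kcnj12 (0.17 ± 0.07, adjusted p = 0.0630) gained it without Nfya replicate 2, GFP replicate 2 or Nfe2l1 replicate 3 (0.19 to 0.26, adjusted p 0.0145 to 0.0496).

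Genes that work with these channels were read from lists, which were chosen with earlier results of these data known. Of the channel partner list, 10 of 15 genes were tested, with 3 higher and 4 lower for each virus. Among all genes 24.3% were higher and 27.9% lower for Nfya and 28.9% and 29.7% for Nfe2l1, which is also the background of the other lists of partners and markers. With 10 genes, 3 and 4 lie close to it. Amigo1, a membrane protein that associates with potassium channels, was lower at 126 ± 0.305 CPM in GFP, 87.9 ± 4.76 with Nfya and 77.5 ± 1.28 with Nfe2l1 (adjusted p = 1.40e-08 and 3.91e-10). Abcc8, a sulfonylurea receptor that joins Kcnj11, was lower at 194 ± 1.70, 146 ± 7.403 and 121 ± 3.45 CPM (adjusted p = 1.05e-07 and 2.84e-10). The other sulfonylurea receptor, Abcc9, chosen after its values were seen, was higher at 136 ± 4.38, 173 ± 0.653 and 157 ± 7.17 CPM (adjusted p = 8.67e-07 and 1.69e-04). The 2 receptors thus moved in opposite directions.

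Of the 10 genes that signal to the acetylcholine-activated channel, 2 were higher and 3 lower with Nfya, none higher and 4 lower with Nfe2l1. Adora1, the adenosine receptor that opens it, fell from 51.7 ± 2.33 CPM to 19.5 ± 1.43 and 18.0 ± 1.40 (log2 fold change -1.41 ± 0.07, adjusted p = 1.55e-10, and -1.52 ± 0.07, adjusted p = 5.19e-11). Rgs4 went the other way with Nfya, from 4.94 ± 0.476 CPM to 12.5 ± 1.70 (1.33 ± 0.17, adjusted p = 6.49e-06). With Nfe2l1 Rgs4 stood at 5.34 ± 0.975 CPM (0.11 ± 0.20, adjusted p = 0.656). Of the 4 pacemaker channel genes, only Hcn2 and Hcn4 were tested and both were lower with both viruses. Hcn2 went from 52.2 ± 1.17 to 32.7 ± 2.81 and 28.7 ± 2.45 CPM, and Hcn4 from 81.4 ± 7.50 to 56.1 ± 1.66 and 49.0 ± 5.11 CPM. Transcription factors known for channel genes gave 1 higher and 4 lower of 10 with Nfya, and none higher and 8 lower with Nfe2l1. The repressor Hey2 was lower with both (-0.47 ± 0.06 and -0.44 ± 0.06). Sodium pump and potassium cotransport genes gave 3 higher and 4 lower of 11, and 1 higher and 7 lower. There Atp1b2, a pump beta subunit, fell from 59.1 ± 1.17 to 25.7 ± 2.15 and 18.1 ± 1.37 CPM.

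Markers of other cells moved beside these genes. Of the myocyte markers 9 of 10 were in the table and tested, with 1 higher and none lower for Nfya and none higher and 1 lower for Nfe2l1. Their sum was 3628 to 4028 CPM in GFP, 3836 to 3899 with Nfya and 3468 to 3834 with Nfe2l1, so these ranges overlap. All 9 fibroblast markers were higher with each virus, with sums of 1049 to 1114, 1971 to 1996 and 1666 to 1791 CPM. Endothelial markers gave 5 higher and 1 lower of 7 with each virus (287 to 301, 371 to 389 and 410 to 430 CPM), and macrophage and leukocyte markers 4 higher and 1 lower, and 4 higher and none lower, of 5 (59.3 to 74.2, 81.7 to 94.4 and 93.8 to 107 CPM). Smooth muscle and pericyte markers gave 5 higher and 1 lower of 8 with Nfya, and 2 higher and 3 lower with Nfe2l1. Schwann and neural markers gave 1 higher and 1 lower of 5 with Nfya, and 4 higher and 1 lower with Nfe2l1 (53.1 to 59.7, 49.5 to 55.5 and 108 to 111 CPM). The part of these cells in the channel differences, including the rise of the neuronally known Kcna1 and Kcnab2 with Nfe2l1, was not tested. In bulk RNA, fewer cells of a type and less RNA per cell cannot be told apart.

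In the authors' deposited table for Nfya against GFP, 56 members were listed, with 12 higher and 22 lower at an FDR below 0.05. In the authors' deposited table for Nfe2l1 against GFP, 57 were listed, with 9 higher and 28 lower. Of the members called there and in the counts above, 30 and 35, all had the same direction in the authors' deposited table, which uses the same libraries.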

How the data were processed

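Whole-number read counts per gene symbol were deposited by the authors for 9 stranded mRNA libraries. The RPKM values and gene lengths in bases were also deposited by the authors, and so were edgeR tables. Their logFC and logCPM hold log2 values, LR a likelihood ratio score, and PValue and FDR p-values, all deposited by the authors. Tools named in the submitters' processing notes are edgeR 3.20.5, featureCounts 1.6.0 and FastQC 0.11.4. They list the builds rn6, mm10 and GRCm38 with no role, and the aligner and strand setting are not stated there.

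The counts were tested with edgeR 4.0.16 and limma 3.58.1 in R 4.3.3. Genes kept by filterByExpr (14151) were scaled by TMM and tested with edgeR's quasi-likelihood F test in 1 model of the 9 libraries that holds group and no other term. Adjusted p-values follow Benjamini-Hochberg over all genes tested, and calls were made below 0.05. CPM are counts over TMM-scaled library sizes. Standard errors divide each log2 fold change (its size) by the square root of F, which understates the error of genes with few counts. Groups at 0 were set to a floor of 3 counts, taken over the whole group, and 1 to 3 counts gave a ratio with an exact interval. The fit was tested on simulated data. Alternatives were DESeq2 1.42.0, RLE factors, other count filters, fewer libraries, a replicate block and a threshold of 0.01.

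Members given with values in every library were the 10 called members with the largest change per comparison and at least 1 CPM in the higher group, 16 genes of classical myocyte currents and the 3 highest by RPKM; others are examples of their family. A few genes are not reported here and not drawn, but enter the counts and sums. Of the channel partner and pacemaker lists, the 2 genes with the smallest p against GFP were named, with Abcc9 added. Of the genes that signal to the acetylcholine-activated channel, the 2 with the smallest p for Nfya were named. Only the gene with the smallest p was named of the transcription factor and pump lists, and none of the marker lists. The members and all lists were chosen with earlier results of these data known. Promoters were matched by symbol for 49 of the 73 members.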

Additional observations from a re-analysis of the deposited data

How the results depend on the processing

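Of 18 alternatives, 9 left out 1 library each. They gave these ranges. For Nfya against GFP, 8 to 13 were higher (11 in the fit reported) and 19 to 21 lower (20). For Nfe2l1 against GFP, 8 to 10 were higher (9) and 24 to 27 lower (26). For Nfya against Nfe2l1, 10 to 16 were higher (14) and 7 to 10 lower (10). Counts that moved by over 1.5 times were as follows. Only genes with a mean of at least 5 CPM, a filter added after seeing the data that leaves 25 members, gave 5 higher for Nfya, 4 higher and 17 lower for Nfe2l1, and 6 lower for Nfya against Nfe2l1. A threshold of 0.01 gave 6 higher for Nfya and 9 higher for Nfya against Nfe2l1. DESeq2 gave 6 and 8 in the same places, and the cause was not tested. Summing the Nfya-labelled libraries was also added after seeing the data.

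Of 2057 alternative values for 118 member differences, 1893 kept direction and call, 122 lost the call, 22 gained it and 20 changed sign. Calls held in every alternative tested for 6 of 11 higher and 18 of 20 lower members with Nfya, and for 8 of 9 and 22 of 26 with Nfe2l1. DESeq2 called 6 higher and 18 lower with Nfya, 8 and 23 with Nfe2l1, and 8 and 7 between the viruses. Kcnq3 with Nfya (adjusted p = 0.0566) and Kcna4 between the viruses (adjusted p = 0.0584) missed the threshold with DESeq2 and in no other alternative. Kcnj11 with Nfya missed it with DESeq2 too (adjusted p = 0.0897), as did other weaker calls. The changes of sign concern differences that were not called. Kcnj2 with Nfya (-0.01) became 0.0013 with RLE factors, 0.0026 with DESeq2 and 0.0091 with the Nfya libraries summed. It was 0.017 with no filter, 0.0231 and 0.0279 with means of at least 1 and 5 CPM, and 0.024 with only the 6 libraries compared. Leaving out 1 library at a time gave Kcnj2 with Nfya -0.0404 to 0.0387, Kcne1 with Nfya -0.2058 to 0.1761, Kcnk12 with Nfya -0.4265 to 0.0108 and Kcnt2 with Nfya -0.0185 to 0.4564. It gave Kcnk5 with Nfe2l1 -0.2558 to 0.1733 (0.0016 with no filter) and Kcne4 between the viruses -0.1008 to 0.1619.

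The replicate block gave 9 higher and 20 lower for Nfya, 9 and 26 for Nfe2l1, and 11 and 9 between the viruses. The numbers gave no sign of pairing the libraries, which such a check cannot exclude. Same-numbered libraries correlated at -0.158 to 0.0585 after removing group means, and others at -0.147 to 0.157. Of 18 comparisons, 2 were best with their own number. The Nfya-labelled libraries differed by no more than counting noise, so they held little by which a pairing could be seen. Depth limits the 19 untested members and those with few counts.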
